A study of Mus musculus with 2 samples.

Results

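Edem2 and 8 genes that lie around it on mouse chromosome 2, Procr, Trpc4ap, Gss, Acss2, Eif6, Itch, Ncoa6 and Pigu, were followed across the blood leukocytes of WT and APP/PS1 mice. These 9 members of the 32285 genes in the count tables were chosen by their place around Edem2, and Edem2 itself was selected on its ratio between these same 2 libraries, so the ratios below describe the genes and no test was made of them. Blood was taken from 7-month-old female C57BL/6J (WT) mice and from age-matched female APP/PS1 mice, a transgenic Alzheimer's disease model that carries mutant amyloid precursor protein and presenilin transgenes, with 3 mice pooled into 1 library per genotype. Red cells were lysed, neutrophils were enriched by a negative selection kit, and 3′ single-cell libraries were prepared with the 10× v3 chemistry. Pooling left no animal-level replicate, and genotype cannot be told apart from library, animal source or handling. All intervals below are 95% intervals that cover the counting error of unique molecular identifiers (UMIs) alone.

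The WT library held 17123 cells and 92458623 UMIs, against 17645 cells and 84870864 UMIs for APP/PS1. Filtering kept 29772 cells in 14 clusters. Clusters were named neutrophil-like by the markers S100a8, S100a9, Hdc, Csf3r, Cxcr2, Retnlg, Mmp9 and Mmp8. UMIs of these genes in the neutrophil-like cells are therefore no separate support for the name. All 8 markers also had UMIs in the monocyte-, NK-, T- and B-like cells of both libraries. Neutrophil-like cells numbered 6117 in WT and 7043 in APP/PS1. A cluster of neutrophils with platelet genes among its leading genes was kept apart, with 1463 and 2545 cells. The enriched blood also held 5375 WT and 3609 APP/PS1 monocyte-like cells, in a cluster with Ace, Ear2 and Treml4 among its leading genes (cluster 1) and a cluster with Fn1, Ccr2 and Ly6c2 among them (cluster 2), with smaller groups of NK-, T-, B-, plasma-, erythroid-, basophil- and platelet-like cells. The summed level of the 8 neutrophil markers was 186100 CPM (counts per 1000000 UMIs of the cell type in that library) in WT neutrophils and 159000 CPM in APP/PS1 neutrophils, but it was still 19260 and 17800 CPM in NK cells, 12960 and 13970 CPM in T cells and 12870 and 6524 CPM in B cells. In monocytes it was 14950 and 12030 CPM, in basophils 22500 and 15620 CPM, in erythroid cells 33850 and 41420 CPM, and in plasma cells 92750 and 55490 CPM. The part of neutrophil RNA in the members' counts in all these cells was not tested. The libraries shared 83 cell barcodes, and leaving these out moved the neutrophil log2 ratio of Edem2 from 1.55 to 1.53.

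The members have unrelated roles. Edem2 encodes a mannosidase of the endoplasmic reticulum that trims N-glycans of misfolded glycoproteins, a step that commits them to ER-associated degradation (ERAD). Gss encodes glutathione synthetase, the last enzyme of glutathione synthesis, and Acss2 encodes the cytosolic and nuclear enzyme that makes acetyl-CoA from acetate. Itch encodes a HECT-type ubiquitin ligase known for restraining T cell activation, and Trpc4ap encodes a substrate adaptor of DDB1-CUL4 ubiquitin ligases. Ncoa6 encodes a nuclear receptor coactivator, Eif6 a factor that holds the 60S ribosomal subunit apart from the 40S subunit, and Pigu a subunit of the GPI transamidase. Procr encodes the endothelial protein C receptor, which presents protein C for activation.

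In the mm10 assembly with GENCODE M21 genes, Edem2 (ENSMUSG00000038312) runs on the minus strand of chromosome 2 from 155701677 to 155729475, and all 9 members are protein-coding genes within 693 kb. Trpc4ap (155634271 to 155692384, minus strand) lies on the side of the Edem2 3′ end, 9.29 kb away, and Procr (155751117 to 155755471, plus strand) starts 21.6 kb beyond the Edem2 start. Eif6 (155819832 to 155826925, minus strand) lies farther on the Procr side. Gss (155563181 to 155592810, minus strand) and Acss2 (155517948 to 155585724, plus strand) overlap tail to tail on opposite strands. Ncoa6 (155390656 to 155473894, minus strand), Pigu (155278243 to 155357430, minus strand) and Itch (155133509 to 155226855, plus strand) follow in that order. The 3′ chemistry keeps the strand of each read, but 395 annotated exonic bases of Gss and Acss2 coincide, so reads from these bases are assigned by strand alone. Edem2 and Procr overlap no other annotated gene.

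Because Edem2 and Gss had log2 ratios above 0.5 between APP/PS1 and WT neutrophils and Acss2 had a ratio below -0.5, their RefSeq promoters (build GRCm38.p6, 250 bases before to 50 after the annotated start, given 5′ to 3′ on the strand of the gene) are shown. Capitals mark matches on either strand to GGGCGG (a GC box, present in 35.9% of 27025 promoters of this length), to GCGCANGC (part of the NRF1 motif, 10.1%) and to CCAAT (37.9%). TATAAA, present in 14.2% of promoters, was also searched and occurred in none of these 3. The first 2 motifs lie close together but do not overlap in Gss. The Edem2 promoter covers chr2:155729426-155729725 on the minus strand, the Gss promoter chr2:155592761-155593060 on the minus strand and the Acss2 promoter chr2:155517793-155518092 on the plus strand.
Edem2: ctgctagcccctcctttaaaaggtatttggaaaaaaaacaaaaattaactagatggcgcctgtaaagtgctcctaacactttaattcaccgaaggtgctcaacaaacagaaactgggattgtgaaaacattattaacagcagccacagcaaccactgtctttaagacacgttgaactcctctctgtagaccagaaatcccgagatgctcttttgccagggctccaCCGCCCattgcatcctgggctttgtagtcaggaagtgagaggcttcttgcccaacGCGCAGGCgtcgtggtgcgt
Gss: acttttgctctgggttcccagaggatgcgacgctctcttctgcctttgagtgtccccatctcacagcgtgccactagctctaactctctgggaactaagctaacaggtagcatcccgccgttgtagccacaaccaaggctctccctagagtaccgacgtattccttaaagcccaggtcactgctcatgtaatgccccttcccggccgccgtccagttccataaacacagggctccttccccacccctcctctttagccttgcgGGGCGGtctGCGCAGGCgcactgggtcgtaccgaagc
Acss2: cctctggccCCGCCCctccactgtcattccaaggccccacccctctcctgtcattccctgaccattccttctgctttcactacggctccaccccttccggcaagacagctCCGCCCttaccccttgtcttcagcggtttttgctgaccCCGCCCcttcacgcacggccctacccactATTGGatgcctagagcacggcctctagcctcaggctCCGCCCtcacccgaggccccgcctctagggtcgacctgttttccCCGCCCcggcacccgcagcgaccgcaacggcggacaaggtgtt

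Edem2 and Gss each held 1 match to GGGCGG and 1 to GCGCANGC, whereas Acss2 held 5 matches to GGGCGG and 1 to CCAAT. Promoter sequence was matched for 7 of the 9 members. Among the other 4 matched, GGGCGG occurred once in Trpc4ap, GCGCANGC once in Pigu, TATAAA and CCAAT once each in Ncoa6, and none of the 4 motifs in Procr. The GC content was 47.3% for Edem2, 58.0% for Gss and 65.0% for Acss2, against a median of 52.7% over all promoters. These matches describe letters in a window and were tied to no measurement of binding.

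Edem2 was counted 451 times in WT neutrophils, 25.8 CPM (23.5 to 28.3), and 1605 times in APP/PS1 neutrophils, 75.3 CPM (71.7 to 79.1). The APP/PS1 level was 2.92-fold higher, a log2 ratio of 1.55 (1.39 to 1.70), and the intervals of the 2 libraries did not overlap. Edem2 ranked 5 among the 5476 genes with at least 200 UMIs in either neutrophil library, by log2 ratio from the highest. This rank is the contrast on which the gene was chosen and supports nothing further. In the neutrophils with platelet genes, a cluster that took no part in the neutrophil sum, the levels were 25.5 (WT) and 75.3 (APP/PS1) CPM, a log2 ratio of 1.57 (1.27 to 1.87). The ratio in these cells and that in the other neutrophils differed by -0.02 (-0.35 to 0.31).

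**Figure D1:**
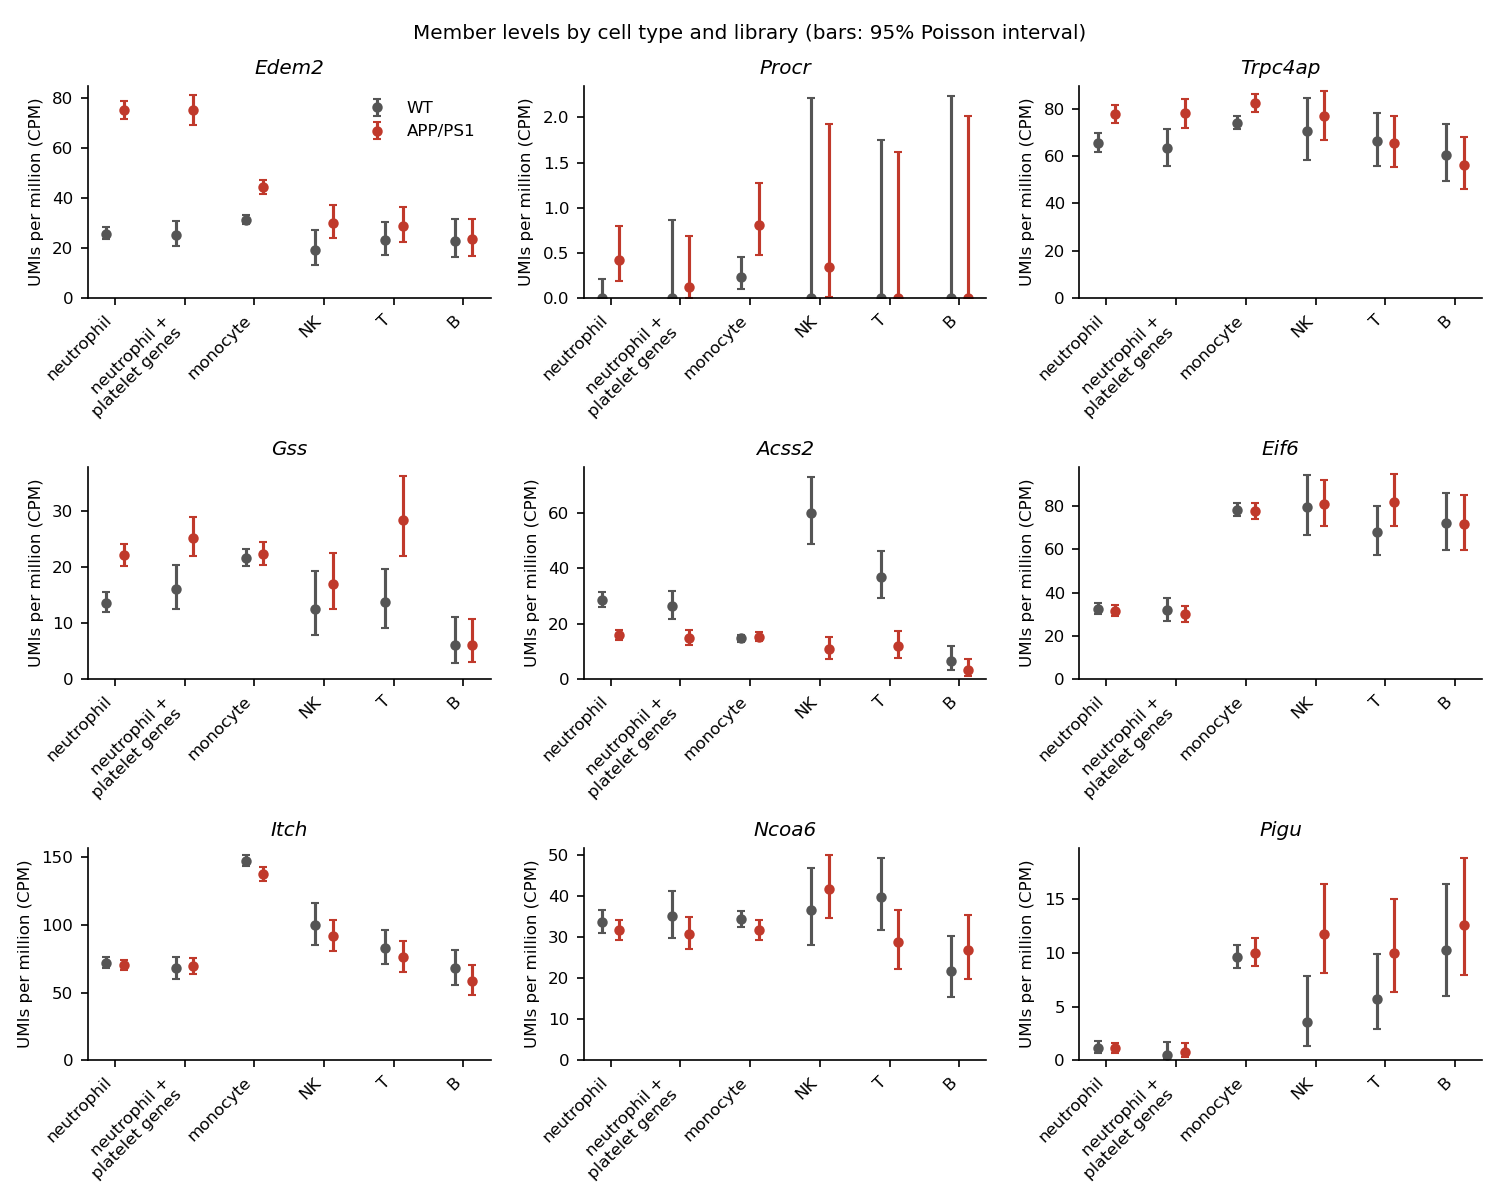
Level of each of the 9 members in CPM (vertical axes, each starting at 0) in 6 cell types (horizontal axes) of the WT (grey) and APP/PS1 (red) libraries; points are 1 library each and bars are 95% Poisson intervals. Edem2 lies near 25 CPM in WT neutrophils and at 75.3 CPM in APP/PS1 neutrophils, Acss2 lies lower in APP/PS1 neutrophils, NK cells and T cells, and Eif6, Itch and Ncoa6 have neutrophil intervals that overlap between the libraries.

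The Edem2 difference was spread over many neutrophils. At least 1 Edem2 UMI was found in 428 of 6117 WT neutrophils, 6.997% (6.37 to 7.67), and in 1392 of 7043 APP/PS1 neutrophils, 19.8% (18.8 to 20.7). Median depth was 2537 UMIs in the WT and 2646 UMIs in the APP/PS1 neutrophils. After each cell was thinned to 1000 UMIs, with 2 shallower cells of the APP/PS1 library dropped, the shares were 2.49% (2.11 to 2.91) and 7.49% (6.88 to 8.12). No neutrophil held over 2 Edem2 UMIs in WT or over 4 in APP/PS1. No cell type of this blood is known to lack Edem2, so the background share from free RNA could not be set beside these shares.

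All 3 clusters of neutrophils showed the Edem2 difference. Cluster 0, the largest, held 26.4 (WT) and 78.7 (APP/PS1) CPM, a log2 ratio of 1.58 (1.41 to 1.74). Cluster 4, led by the interferon-induced genes Ifit3b, Ifit3 and Ifit1, held 24.8 and 75.4 CPM, a log2 ratio of 1.60 (1.09 to 2.16). Cluster 10, led by the secondary granule genes Camp, Ngp and Ltf, had lower levels of 12.2 and 28.1 CPM, from 7 and 33 UMIs, and a log2 ratio of 1.21 (0.01 to 2.63). The 3 intervals overlapped, and the granule gene cluster was the least precise.

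The summed Edem2 ratios of monocytes and of NK, T and B cells were smaller than that of neutrophils. Monocytes held 1091 UMIs, 31.4 CPM (29.6 to 33.4), in WT and 991 UMIs, 44.4 CPM (41.6 to 47.2), in APP/PS1, a log2 ratio of 0.50 (0.37 to 0.62). The neutrophil ratio exceeded the monocyte ratio by 1.05 (0.85 to 1.25), which is beyond counting error. With each cell thinned to 1000 UMIs the monocyte ratio was 0.77 and the neutrophil ratio exceeded it by 0.62 (0.21 to 1.03). Within the monocytes, cluster 1 had a log2 ratio of 0.59 (0.37 to 0.80) and cluster 2 of 0.44 (0.29 to 0.60).

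NK cells held 32 WT and 87 APP/PS1 Edem2 UMIs, 19.2 and 30.1 CPM, a log2 ratio of 0.65 (0.05 to 1.28). This ratio moved with the processing, to 0.09 without percentile limits on cells, 0.21 at resolution 0.8, 0.31 with doublets removed and 0.89 when thinned. T cells held 49 and 66 UMIs, 23.2 and 28.8 CPM, a log2 ratio of 0.31 (-0.24 to 0.88). The T cell clusters lay apart in value, at 0.05 (-0.55 to 0.66) in cluster 6 and 1.84 (0.15 to 3.92) in cluster 11, the latter from 4 and 13 UMIs, and the summed T cell ratio was 0.93 with doublets removed. B cells held 38 and 43 UMIs, 23.0 and 23.5 CPM, a log2 ratio of 0.03 (-0.63 to 0.70), with 7 of the WT UMIs in 1 cell. The neutrophil ratio exceeded that of NK cells by 0.90 (0.292 to 1.5), that of T cells by 1.23 (0.68 to 1.79) and that of B cells by 1.52 (0.87 to 2.16). These 3 differences hold for the cells as first filtered and were not computed under the other settings. For T and B cells the data allowed a difference between the libraries in either direction.

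Erythroid cells and basophils had Edem2 ratios of the size found in neutrophils, from few UMIs and beside the summed neutrophil marker levels given above, whose part in these ratios was not tested. Erythroid cells held 16 WT and 30 APP/PS1 UMIs, a log2 ratio of 1.87 (0.94 to 2.84), and basophils 10 and 21 UMIs, a log2 ratio of 1.84 (0.69 to 3.09). Plasma cells, which produce large amounts of glycoprotein, had Edem2 levels of 58.3 CPM (35.1 to 91.0) in WT and 73.6 CPM (51.8 to 101.5) in APP/PS1, from 19 and 37 UMIs, with 7 UMIs in a single cell in each library. Without that cell the levels were 36.8 CPM (19.0 to 64.3) and 59.7 CPM (40.3 to 85.2). An Edem2 UMI was found in 8 of 105 WT plasma cells, 7.62%, against 17.8% (16.7 to 18.8) of WT monocytes. Median depth was 2285 UMIs in these plasma cells and 6263 UMIs in these monocytes. After thinning to equal depth, the shares were 3.81% (1.05 to 9.47) and 3.05% (2.61 to 3.55), with overlapping intervals. Over the 12 clusters with at least 20 Edem2 UMIs in the 2 libraries together, log2 ratios ran from 0.03 to 1.87. All 12 were above 0, and 9 of their intervals excluded 0. By the same minimum, Trpc4ap was above 0 in 10 of 13 clusters. The clusters are parts of the 2 libraries on which Edem2 was chosen and are not replicates, so these counts are a description.

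**Figure D2:**
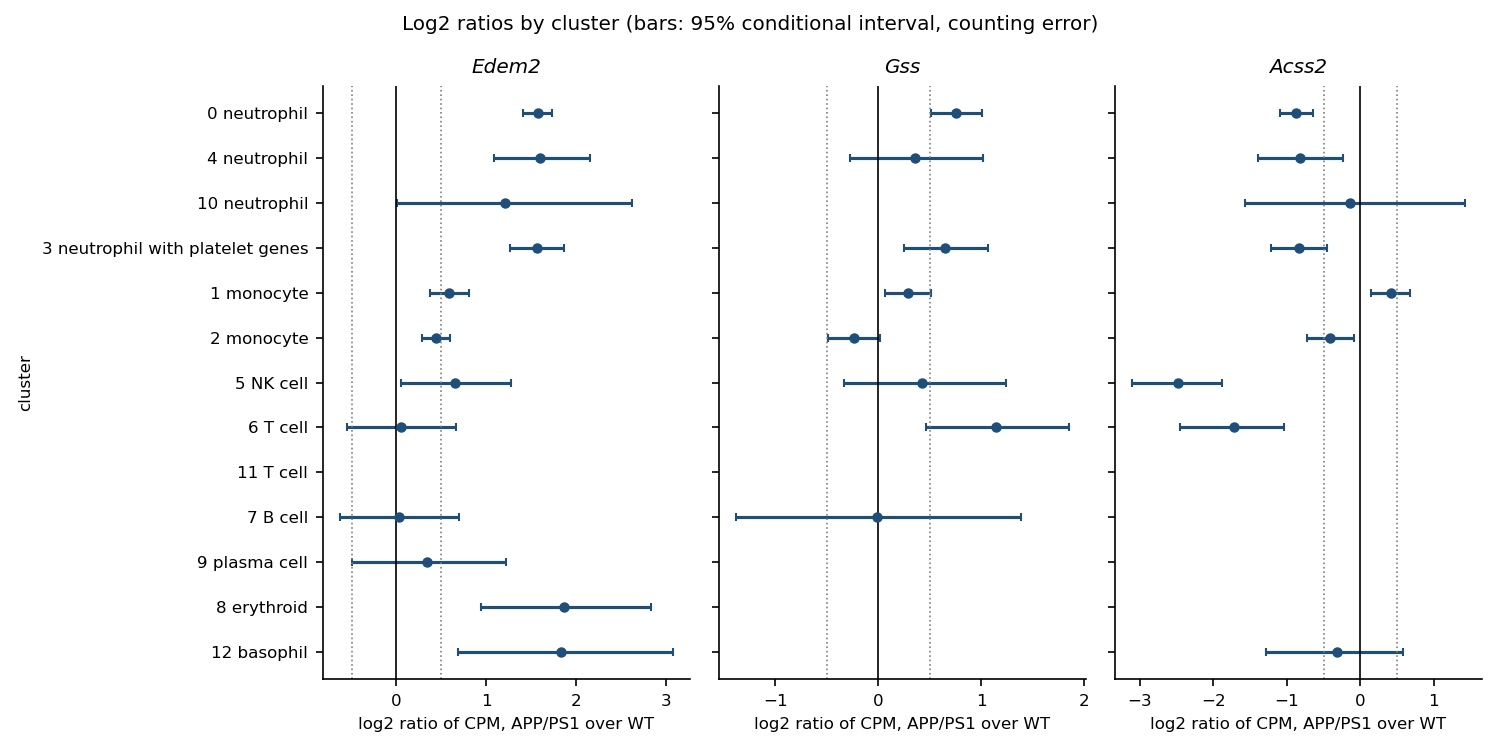
Log2 ratio of CPM, APP/PS1 over WT (horizontal axes), of Edem2, Gss and Acss2 in each cluster (vertical axis) with at least 20 UMIs of the gene over both libraries; bars are 95% conditional intervals for counting error and dotted lines mark 0.5 and -0.5. Edem2 is above 0 in all 12 clusters drawn, Gss is highest in T cell cluster 6 (1.14), and Acss2 is lowest in NK cells (-2.48) and above 0 in monocyte cluster 1 alone (0.41).

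The order of cell types by Edem2 level differed between the libraries. Among types of at least 100 cells in each library, WT plasma cells came highest and monocytes next, followed by neutrophils, neutrophils with platelet genes, T, B and NK cells, with erythroid cells lowest at 8.30 CPM. CPM is taken over the UMIs of all genes. In erythroid cells the erythroid markers, haemoglobin genes among them, held 630200 (WT) and 565100 (APP/PS1) CPM. Their part in the place of erythroid cells was not tested. The place of plasma cells above monocytes rested on the single cell named above, since without it their interval overlapped that of monocytes, and with cells thinned the WT plasma cell level was 28.6 CPM. Monocytes lay apart from neutrophils, and from neutrophils down each interval overlapped the next. In APP/PS1, both groups of neutrophils and the plasma cells shared the top with overlapping intervals, monocytes came next, and B cells were lowest at 23.5 CPM. WT monocytes lay above WT neutrophils by a log2 ratio of 0.29 (0.13 to 0.45), whereas APP/PS1 monocytes lay below APP/PS1 neutrophils (-0.76, -0.88 to -0.65). Monocytes held more UMIs per cell, with medians of 6263 (WT) and 6264 (APP/PS1), against 2537 and 2646 in neutrophils. With cells thinned to 1000 UMIs, which drops most UMIs, the WT ratio was -0.09 and the APP/PS1 ratio -0.70. No intervals were computed for these 2 thinned ratios, and the part of UMIs per cell in the order was not tested.

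Gss, like Edem2, was higher in APP/PS1 neutrophils. It was counted 238 times in WT, 13.6 CPM (11.9 to 15.5), and 470 times in APP/PS1, 22.1 CPM (20.1 to 24.2), a 1.62-fold difference and a log2 ratio of 0.70 (0.47 to 0.93). In the neutrophils with platelet genes the levels were 16.1 and 25.2 CPM, a log2 ratio of 0.65 (0.25 to 1.06). The share of neutrophils with a Gss UMI was 3.60% (3.14 to 4.09) in WT and 6.12% (5.57 to 6.71) in APP/PS1. After thinning it was 1.46% (1.17 to 1.79) and 2.27% (1.94 to 2.65).

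In monocytes Gss levels were 21.6 (WT) and 22.3 (APP/PS1) CPM, a log2 ratio of 0.05 (-0.12 to 0.21), and the neutrophil ratio exceeded it by 0.65 (0.37 to 0.93). The monocyte clusters differed by 0.52 (0.19 to 0.85), with a log2 ratio of 0.29 (0.06 to 0.51) in cluster 1 and -0.23 (-0.49 to 0.02) in cluster 2. In T cells Gss went from 29 UMIs and 13.7 CPM in WT to 65 UMIs and 28.4 CPM in APP/PS1, a log2 ratio of 1.05 (0.40 to 1.73). NK cells, with 21 and 49 UMIs, had a log2 ratio of 0.43 (-0.34 to 1.24). B cells held only 10 and 11 Gss UMIs, and none of the granule gene neutrophils of cluster 10 held any in either library.

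Acss2 was lower in APP/PS1 neutrophils. It was counted 500 times in WT, 28.6 CPM (26.2 to 31.2), and 339 times in APP/PS1, 15.9 CPM (14.3 to 17.7). The WT level was 1.80-fold that of APP/PS1, a log2 ratio of -0.85 (-1.05 to -0.64), and the intervals did not overlap. The neutrophils with platelet genes gave 26.4 and 14.8 CPM, a log2 ratio of -0.83 (-1.21 to -0.45). An Acss2 UMI was found in 7.21% (6.57 to 7.89) of WT neutrophils and 4.46% (3.99 to 4.97) of APP/PS1 neutrophils, and after thinning in 2.99% (2.58 to 3.45) and 1.41% (1.14 to 1.71).

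The Acss2 difference was larger in NK and T cells than in neutrophils. NK cells held 100 UMIs, 59.9 CPM (48.8 to 72.9), in WT and 31 UMIs, 10.7 CPM (7.29 to 15.2), in APP/PS1, a log2 ratio of -2.48 (-3.11 to -1.89). T cells held 78 UMIs, 36.9 CPM (29.2 to 46.1), in WT and 27 UMIs, 11.8 CPM (7.77 to 17.2), in APP/PS1, a log2 ratio of -1.65 (-2.335 to -0.999). The neutrophil ratio was above that of NK cells by 1.64 (1.02 to 2.25) and above that of T cells by 0.80 (0.14 to 1.46). NK and T cells differed by -0.84 (-1.69 to 0.02), which is within counting error.

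An Acss2 UMI was found in 86 of 425 WT NK cells, 20.2% (16.5 to 24.4), and in 29 of 765 APP/PS1 NK cells, 3.79% (2.55 to 5.40), with median depths of 3596 and 3362 UMIs. Thinned to 1000 UMIs, the shares were 6.35% (4.23 to 9.11) and 1.05% (0.45 to 2.05). The level in WT NK cells was 2.10-fold that in WT neutrophils, a log2 ratio of 1.07 (0.74 to 1.38). The level in APP/PS1 NK cells was below that in APP/PS1 neutrophils, a log2 ratio of -0.57 (-1.15 to -0.04). Among WT types of at least 100 cells, NK cells came highest in Acss2, whereas in APP/PS1 the intervals of neighbouring types overlapped throughout the order.

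The 2 monocyte clusters lay on opposite sides of 0 in Acss2. The summed monocyte levels, which mix them, were 14.7 (WT) and 15.3 (APP/PS1) CPM, a log2 ratio of 0.06 (-0.14 to 0.26). Cluster 1 had 17.8 (WT) and 23.6 (APP/PS1) CPM, a log2 ratio of 0.41 (0.15 to 0.68), and cluster 2 had 12.4 and 9.36 CPM, a log2 ratio of -0.41 (-0.73 to -0.09). The 2 clusters differed by 0.82 (0.42 to 1.23), and the neutrophil ratio lay 1.26 below that of cluster 1 (-1.59 to -0.93 for the signed difference). Basophils, at 92.0 (WT) and 73.6 (APP/PS1) CPM from 34 and 16 UMIs, held more Acss2 than any other cell type named here, although their WT interval (63.7 to 128.5 CPM) overlapped that of WT NK cells, and their log2 ratio was -0.32 (-1.28 to 0.58). In B cells, 11 and 6 UMIs gave a log2 ratio of -1.02 (-2.74 to 0.54). Plasma cells, with 5 and 7 UMIs, were at -0.14 (-2.01 to 1.86), and erythroid cells, with 11 and 7 UMIs, at 0.31 (-1.30 to 1.80).

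Trpc4ap, the gene next to Edem2 at its 3′ end, differed little. Neutrophils held 1148 UMIs, 65.7 CPM (61.9 to 69.6), in WT and 1658 UMIs, 77.8 CPM (74.1 to 81.7), in APP/PS1, a log2 ratio of 0.25 (0.14 to 0.36). Monocytes held 74.2 and 82.4 CPM, a log2 ratio of 0.15 (0.07 to 0.24). The ratios of the neutrophils and monocytes differed by 0.09 (-0.05 to 0.23). In NK, T and B cells the log2 ratios were 0.12, -0.02 and -0.11, with intervals that included 0.

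Itch and Ncoa6 lay near a ratio of 1 in neutrophils. Itch was at 72.0 CPM (68.1 to 76.1) in WT and 70.3 CPM (66.8 to 74.0) in APP/PS1 neutrophils, a log2 ratio of -0.04 (-0.14 to 0.08). Its level in monocytes was about 2-fold that in neutrophils in each library, 147.7 (WT) and 137.7 (APP/PS1) CPM, with log2 ratios over neutrophils of 1.04 (0.95 to 1.13) and 0.97 (0.88 to 1.06). The monocyte ratio between libraries was -0.10 (-0.17 to -0.04), but 0.06 without percentile limits. Ncoa6 was at 33.7 CPM (31.0 to 36.5) and 31.7 CPM (29.4 to 34.2) in neutrophils, a log2 ratio of -0.09 (-0.25 to 0.08). In T cells Ncoa6 was at 39.8 (WT) and 28.8 (APP/PS1) CPM, a log2 ratio of -0.46 (-0.95 to 0.02), and T cell cluster 11 alone, from 22 and 7 UMIs, was at -1.51 (-2.98 to -0.23).

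Eif6 differed more between cell types than between libraries. Neutrophils held 32.6 CPM (29.9 to 35.3) in WT and 31.6 CPM (29.3 to 34.1) in APP/PS1, a log2 ratio of -0.04 (-0.20 to 0.12). Monocytes held 78.4 and 77.7 CPM, a log2 ratio of -0.01 (-0.10 to 0.07). The monocyte level was 2.41-fold that of neutrophils in WT and 2.46-fold in APP/PS1. NK, T and B cells lay between 68.2 and 82.1 CPM in both libraries, with intervals overlapping those of monocytes.

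Pigu was scarce in neutrophils, with 20 WT and 23 APP/PS1 UMIs, 1.14 CPM (0.70 to 1.77) and 1.08 CPM (0.68 to 1.62). Monocytes held 9.62 and 10.0 CPM, a log2 ratio of 0.06 (-0.19 to 0.31), which was 8.41-fold the neutrophil level in WT and 9.29-fold in APP/PS1. In NK cells Pigu was counted 6 times in WT, 3.60 CPM (1.32 to 7.83), and 34 times in APP/PS1, 11.8 CPM (8.14 to 16.4), a log2 ratio of 1.71 (0.44 to 3.25). No WT NK cell held over 1 of these UMIs and no APP/PS1 NK cell over 2. The NK cell ratio exceeded that of neutrophils by 1.79 (0.27 to 3.32).

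Procr was close to the limit of detection. None of the 6117 WT neutrophils held a Procr UMI, which allows up to 3 UMIs or 0.17 CPM, and 9 of 7043 APP/PS1 neutrophils held 1 each, 0.42 CPM. The APP/PS1 value was 2.46 times this floor, and the exact interval of the ratio, which also takes in the error of the 9 UMIs, had its lower end at 1.62-fold. Monocytes held 8 WT and 18 APP/PS1 UMIs, but 10 of the 18 were in a single cell. With the cell of most UMIs left out in each library the monocyte log2 ratio went from 1.81 (0.53 to 3.22) to 0.83. No T, B, plasma, erythroid or basophil cell of either library held a Procr UMI, and 1 APP/PS1 NK cell did.

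Of the 9 members, 7 reached 200 UMIs in a neutrophil library, Pigu and Procr being below this minimum. A log2 ratio over 0.5 was found for 2 of the 7, Edem2 and Gss, beside 2.57% of all 5476 genes, and a ratio under -0.5 for 1 of the 7, Acss2, beside 2.59% of all genes. As the set was picked on this contrast, nothing is read from these shares. The median log2 ratio was -0.04 over the 7 members and 0.06 over all genes. In monocytes, 8 members reached the minimum and none passed 0.5 in either direction, against 0.817% of 8326 genes that were higher and 1.89% that were lower. Edem2 lay at 0.497 there, at the edge of that fold.

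**Figure D3:**
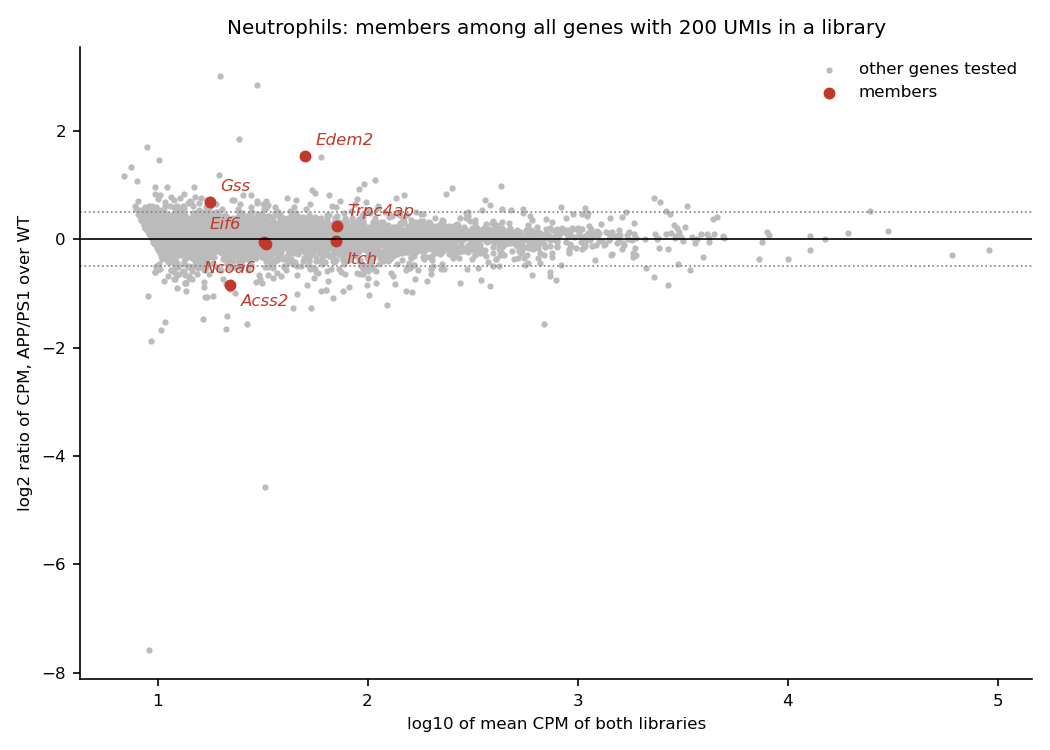
Log2 ratio of CPM, APP/PS1 over WT (vertical axis), against the log10 of the mean CPM of both libraries (horizontal axis) in neutrophils for the 5476 genes with at least 200 UMIs in either library; members are red and dotted lines mark 0.5 and -0.5. Edem2 stands near the top of its range of levels at 1.55, Gss at 0.70 and Acss2 at -0.85, while Trpc4ap, Itch, Eif6 and Ncoa6 lie within the main cloud.

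The 3 members past 0.5 lay next to members and other genes that were not. Within 1 Mb of the Edem2 start the tables held 59 genes, of which 21 reached the minimum, and Edem2, Gss and Acss2 were the genes past 0.5. This depended on the processing. With percentiles over both libraries, doublets removed, levels averaged over cells or all variable features, 3 genes within 1 Mb were above 0.5. Under these settings the members above 0.5 were still 2. With the first settings, the 14 genes that are not members ranged from -0.08 for Cpne1, a copine, to 0.495 for Phf20, a chromatin reader. On the Itch side these were Raly (0.06), Eif2s2 (-0.07), Dynlrb1 (0.20), the autophagy gene Map1lc3a (0.41, 0.27 to 0.55) and Trp53inp2 (0.21). On the Eif6 side these were Cep250 (0.17), Ergic3 (0.42, 0.20 to 0.64), Cpne1, Romo1 (-0.01), Rbm39 (0.03), Phf20 (0.20 to 0.80), Scand1 (0.21), 2900097C17Rik (0.15) and Dlgap4 (0.22). The median over the 21 genes, Edem2 among them, was 0.17, beside 0.06 over all 5476 genes. This is a description, as the region was chosen around Edem2.

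Between 1 and 5 Mb from the Edem2 start, 29 genes reached the minimum, with Commd7 above 0.5 and Fam110a, Id1, Gm14286 and Tgm2 below -0.5. Over the whole 5 Mb on either side, 8 of 50 genes, 16.0%, passed 0.5 in either direction, against 14 of 371 genes, 3.77%, on the rest of chromosome 2 and 5.17% of all genes. Edem2 was chosen for its own ratio and lies in the window, so these shares are a description. Tgm2, the transglutaminase gene, was past 1 on the log2 scale, with 172.6 (WT) and 74.2 (APP/PS1) CPM in neutrophils, a log2 ratio of -1.22 (-1.31 to -1.13). It was also below 0 in monocyte cluster 1 (-0.36), monocyte cluster 2 (-1.27), NK cells (-0.83), T cells (-1.21) and B cells (-2.51), each with an interval that excluded 0.

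Of the genes past 0.5 in this span, 2 more are given for their range over cell types, chosen after their values were seen. Commd7, which encodes a COMM domain protein, was at 18.5 (WT) and 32.4 (APP/PS1) CPM in neutrophils, a log2 ratio of 0.81 (0.62 to 1.01). In monocyte clusters 1 and 2 the Commd7 ratio was 0.17 (0.01 to 0.33) and 0.13 (-0.01 to 0.27). In NK, T and B cells it was 0.37 (0.05 to 0.69), 0.09 (-0.27 to 0.46) and 0.32 (-0.20 to 0.85). Id1, an inhibitor of basic helix-loop-helix factors, was at 37.3 and 21.6 CPM in neutrophils, a log2 ratio of -0.79 (-0.96 to -0.61), but at 0.40 (0.29 to 0.51) in monocyte cluster 2. In monocyte cluster 1 the Id1 ratio was -0.22 (-0.50 to 0.06), and its NK, T and B cell intervals included 0. Below the minimum of 200 UMIs, and picked after their values were seen, Aar2 had 22 WT and 88 APP/PS1 UMIs in neutrophils, a log2 ratio of 1.71 (1.03 to 2.46), and Cdk5rap1 88 and 17 UMIs, a log2 ratio of -2.66 (-3.50 to -1.90). Cnbd2, also below the minimum and 583 kb from the Edem2 start, had 177 and 138 UMIs, a log2 ratio of -0.645 (-0.976 to -0.315). Aar2, a splicing factor gene 818 kb from the Edem2 start, was also above 0 in both monocyte clusters, NK, T and B cells, from 0.85 to 1.68, each with an interval that excluded 0. Cdk5rap1 was below 0 in these same groups, from -2.02 to -0.57, but its interval excluded 0 in monocyte cluster 2 and T cells alone.

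**Figure D4:**
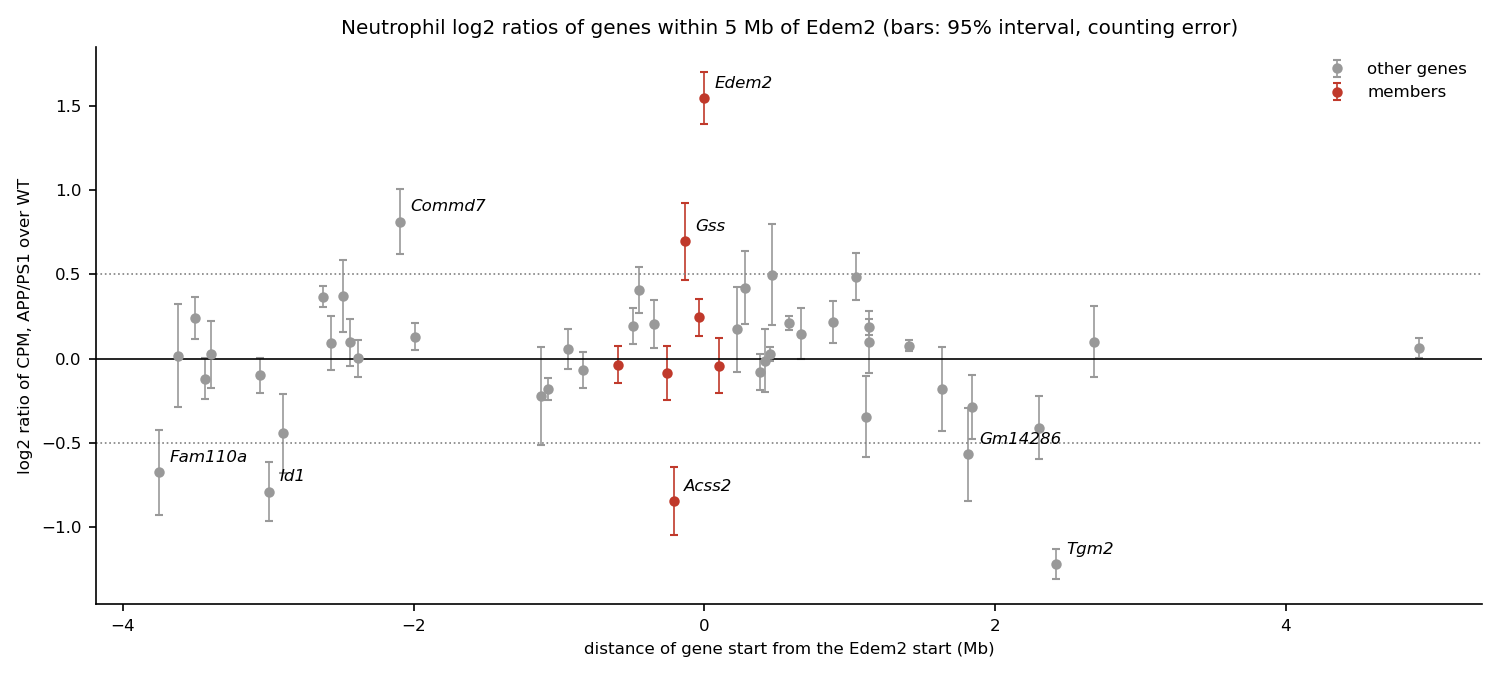
Log2 ratio of CPM, APP/PS1 over WT, in neutrophils (vertical axis) of the 50 genes with at least 200 UMIs within 5 Mb of the Edem2 start, by distance of the gene start in Mb (horizontal axis); members are red, bars are 95% intervals for counting error and dotted lines mark 0.5 and -0.5. Edem2 is the highest point, Gss and Acss2 sit close to it on opposite sides of 0, and Tgm2 is the lowest point.

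Lists of genes that work with the members were also read in neutrophils. Of 26 genes of ER mannose trimming and ERAD, 22 reached the minimum, and Edem2 was the gene past 0.5. The other 21 had a median of 0.07 and none passed 0.5. Edem1, which encodes the paralog of EDEM2, was at 35.4 (WT) and 38.5 (APP/PS1) CPM, a log2 ratio of 0.12 (-0.03 to 0.28), and Edem3 held only 94 and 103 UMIs. Hspa5, the ER chaperone BiP, and Derl1, of the retrotranslocation channel, had the most UMIs of the list, with log2 ratios of 0.28 (0.23 to 0.33) and 0.13 (0.04 to 0.22).

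Of 16 glutathione genes, 10 reached the minimum. Gss was past 0.5 and the other 9 had a median of -0.07, with Gsr, glutathione reductase, at -0.07 (-0.10 to -0.05) and Slc7a11, the cystine importer, at 0.12 (0.10 to 0.15). Of 10 genes of acetyl-CoA supply and use only Acss2, Acly (0.18, -0.01 to 0.37) and Hmgcs1 (0.30, -0.03 to 0.62) reached it, so Acss2 was the gene past 0.5. The genes below the minimum were read after their values were seen. Acss1, the mitochondrial acetyl-CoA synthetase gene, had 28 WT and 17 APP/PS1 UMIs, a log2 ratio of -1.01 (-1.97 to -0.09). Slc25a1, the citrate carrier gene, had 71 and 50 UMIs, a log2 ratio of -0.79 (-1.34 to -0.25). Crat (0.14, -0.17 to 0.47), Acat1 (0.06, -0.37 to 0.50) and Acat2 (0.27, -0.46 to 1.01) lay above 0. Acaca was at -0.77 (-2.10 to 0.50) and Acss3 held 1 UMI. In the glutathione list, Ggt1, with 54 and 30 UMIs, was at -1.13 (-1.83 to -0.46), opposite to Gss. Of 12 genes of the protein C pathway and coagulation receptors, 3 reached it. Thbd, thrombomodulin, was at 17.3 (WT) and 9.86 (APP/PS1) CPM, a log2 ratio of -0.81 (-1.07 to -0.55), Plaur, the urokinase receptor, was at -0.53 (-0.58 to -0.48), and F5 was at -0.17.

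None of the remaining lists held a gene past 0.5 among those that reached the minimum. These were 6 of 10 NEDD4-family ligase and adaptor genes (Ndfip1 0.23, Itch -0.04), 5 of 10 ASCOM complex genes (Kmt2c 0.02, Kdm6a -0.11), 2 of 5 GPI transamidase genes (Pigs -0.04, Pigt -0.00), 5 of 9 genes of 60S subunit release (Rpl23 0.03, Rpl24 0.19) and 6 of 7 DDB1-CUL4 genes (Rbx1 0.03, Trpc4ap 0.25). Their medians ran from -0.11 to 0.06. Genes of the NEDD4-family list below the minimum were read after their values were seen. Nedd4, with 67 WT and 139 APP/PS1 UMIs, was at 0.77 (0.34 to 1.21), and Smurf1, with 40 and 71 UMIs, at 0.54 (-0.04 to 1.14). Wwp1 (-0.25, -0.61 to 0.10) and Hecw2 (-0.36, -1.35 to 0.62) lay below 0.

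Over 16 groups, 8 cell types of at least 100 cells in each of the 2 libraries, the genes whose log2(CPM + 1) was most like that of Edem2 were Plekhn1 (r = 0.87), Kiz (0.86), Dnajb9 (0.83), Flcn (0.81) and Rogdi (0.80) among 5475 genes. The 16 groups come from 2 libraries, so these values of Pearson's r describe a shared pattern and carry no test. Kiz is the gene of these 5 that also lies on chromosome 2, outside the 5 Mb window. In neutrophils the log2 ratios of the 5 genes were 1.84, 0.76, 0.48, 0.48 and 0.17 in that order.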

How the data were processed

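Per the labels and the study's methods, the authors aligned and counted reads with Cell Ranger 5.0.0 against mm10, and the deposited counts are UMIs per gene and cell, not normalized. Cells were kept between the 5 and 95 percentiles of UMIs and of genes in their own library, with at most 10% mitochondrial UMIs. They were clustered in Seurat 5.3.0 (2000 variable features less those within 5 Mb of Edem2, 15 principal components, resolution 0.2). Clusters were named where the mean log2 ratio of a marker list against the other clusters was above 0.5 (pseudocount 10 CPM), a rule set after the clusters were seen. Doublets were called by Scrublet scores (scanpy 1.11.5) above 0.217, the automatic threshold of the WT library, in both libraries. The automatic threshold of the APP/PS1 library was 0.728 and was not used. The called doublets, 9.04% of WT and 7.29% of APP/PS1 cells, were kept and were removed in an alternative.

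UMIs were summed per library and cell type, divided by the sum of all genes, and given as CPM with exact Poisson intervals. Ratios carry exact conditional intervals, and differences of log2 ratios carry delta-method intervals (scipy 1.17.1). With 1 library per genotype no test was made. Positions came from GENCODE M21, matched for 32158 genes. Genes needed 200 UMIs in either library to be counted, and past a fold means a log2 ratio beyond 0.5. The ratio intervals and fold calls were checked on simulated Poisson counts of the neutrophils. That check holds no library effect and does not cover the filtering, clustering, naming or doublet steps. Alternatives covered cell limits, doublets, scaling (edgeR 4.0.16 TMM among them), thinning, resolution, features and the minimum.

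The members, gene lists and tests were chosen with earlier results of these data known. Named genes were the members, all genes within 1 Mb of Edem2 with 200 UMIs in either neutrophil library, genes of the 5 Mb window past a log2 ratio of 1, the genes past 0.5 and the 2 with most UMIs of each list, and the 5 genes most like Edem2. Edem1 and Edem3, the other genes of its family, were added.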

Additional observations from a re-analysis of the deposited data

Results flagged for a closer look

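The log2 ratio (APP/PS1 over WT) of Acss2 had intervals on opposite sides of 0 in different cell types, so that these groups lay on opposite sides under the same contrast. Against monocyte cluster 1, where the ratio was 0.41, the ratio differed by -2.90 in NK cells, by -2.06 in T cells, -1.26 in neutrophils, -1.25 in the neutrophils with platelet genes and -0.82 in monocyte cluster 2. Id1, which lies within 5 Mb of Edem2, had a ratio of 0.40 in monocyte cluster 2, and differed from it by -1.19 in neutrophils and by -1.22 in the neutrophils with platelet genes. With 1 library per genotype these differences were not tested between animals, and their intervals cover counting error only.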

How the results depend on the processing

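Over 13 alternatives, 59 results gave 733 values, of which 683 stayed within their interval or, for counts, within 1.5 times, and 50 moved further. No ratio past 0.5 changed sign, but 29 smaller ratios did, 27 of them with an interval that includes 0. The other 2 were Itch in monocytes, from -0.10 to 0.06 without percentile limits, and Edem2 in WT monocytes over neutrophils when thinned. The platelet-gene cluster counted with the neutrophils, the shared barcodes left out and the cell with most UMIs left out were chosen after seeing the data, as were the settings for plasma cells and for the difference between neutrophils and monocytes. Neutrophil log2 ratios ran from 1.39 to 1.58 for Edem2, from 0.63 to 0.74 for Gss and from -0.89 to -0.63 for Acss2. With cells thinned to 1000 UMIs, the Edem2 ratio of neutrophils less that of monocytes was 0.62, Edem2 in neutrophils was at 1.39, Acss2 at -0.63 and Eif6 at 0.28, and as fewer genes then reached 200 UMIs, members past 0.5 were 1 higher and 0 lower, all genes 79 higher and 91 lower, genes below -0.5 were 0 within 1 Mb and 2 within 5 Mb, and in monocytes 30 genes were higher and 61 lower. With a minimum of 50 UMIs, 441 genes were higher and 303 lower, within 5 Mb 7 and 10, 2 were lower within 1 Mb, and in monocytes 220 were higher and 375 lower. Without percentile limits 219 genes were higher and 2 were lower within 1 Mb, a count also 2 with the platelet-gene cluster included. In monocytes 1 member, Edem2, passed 0.5 under percentiles over both libraries, TMM factors, resolution 0.8 and all variable features. Edem2 in monocytes over neutrophils was 0.50 in WT and -0.61 in APP/PS1 without percentile limits, and -0.085 in WT when thinned. Beyond what is stated, the cause was not tested. No paired analysis was possible because each genotype had 1 library. Depth limited Procr, Pigu in neutrophils and all members in plasma, erythroid and basophil cells.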
